A study of Homo sapiens with 6 samples.

Results

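The 50 genes described here encode heat shock proteins, their co-chaperones and the regulators HSF1 and HSF2. They were taken by gene symbol from the count table, which gave 50 of 50 a row among 25987 genes with a symbol, and 50 of 50 passed the filter on low counts that left 12944 genes for testing. By role they are 2 heat shock factors, 8 members of the HSP70 and HSP110 family, 3 of the HSP90 family, 3 small heat shock proteins, the 2 subunits of the mitochondrial chaperonin, 11 J-domain proteins, 4 BAG proteins, 8 other co-chaperones of HSP90 and HSP70, the collagen chaperone SERPINH1 and the 8 subunits of the cytosolic chaperonin CCT. Not all act in the cytosol: HSPA9, TRAP1, HSPD1, HSPE1 and DNAJA3 work in mitochondria and SERPINH1 in the endoplasmic reticulum. RNA was sequenced from 786-O, an established line from a human clear cell renal carcinoma, labelled as wild type. In the 3 copper libraries the cells had been adapted to copper, given as copper sulfate bound beforehand to the serum of the medium. In the 3 control libraries the serum went through the same steps without copper, and no other agent is named for either group. The copper dose is labelled as 30, 31 and 32 uM for replicates 1, 2 and 3 but is 30 uM in the series text, so the 3 were treated as 1 group. The labels give no length of exposure and do not say that the libraries came from separate cultures, so p-values measure only the spread between these libraries, which may be technical.

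HSP70 proteins bind exposed hydrophobic stretches of unfolded proteins and let go of them in a cycle driven by ATP, which J-domain proteins start and BAG and HSP110 proteins help to end by exchanging nucleotide. HSP90 takes over partly folded clients such as kinases and steroid receptors, with co-chaperones such as STIP1, CDC37 and PTGES3 steering its cycle, while CCT folds actin and tubulin inside a chamber. When heat, metals or other stresses unfold proteins, the transcription factor HSF1 binds heat shock elements, inverted repeats of the letters GAA, and raises transcription of many of these genes, HSPA1A and HSPA1B among the most inducible.

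Heat shock elements were searched for in RefSeq promoter windows of build GRCh38.p14, from 250 bases before to 50 after each annotated start, on both strands. A match of 2 units was GAANNTTC or TTCNNGAA, each its own reverse complement. A match of 3 units was GAANNTTCNNGAA or TTCNNGAANNTTC, which are reverse complements of each other and contain the 2-unit pattern. Windows were found for 43 of the 50 genes. Of the 43, 8 held 3 units (18.6%), against 0.608% of 27305 genes with a window and 0.49% of 35116 windows. The 8 were HSPA8, HSP90AA1, HSP90AB1, CHORDC1, HSPD1, DNAJA1, DNAJB6 and SERPINH1. At least 2 units stood in 21 of the 43 (48.8%), against 16.2% of genes and 13.5% of windows. The sites below belong to genes whose values in every library are given further on: the constitutive HSP70 and both cytosolic HSP90 genes, the inducible HSP70 pair, the chaperonin subunit HSPD1, the J-domain genes DNAJB1 and DNAJB6, and CHORDC1. Each is 30 bases, written 5′ to 3′ on the strand of its gene, with the GAA and TTC units of the matches in capitals.
HSPA8: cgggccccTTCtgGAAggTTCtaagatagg
HSP90AA1: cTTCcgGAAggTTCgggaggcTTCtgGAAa
HSP90AB1: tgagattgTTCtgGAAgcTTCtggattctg
CHORDC1: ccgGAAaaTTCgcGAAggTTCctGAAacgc
HSPD1: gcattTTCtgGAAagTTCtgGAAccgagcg
DNAJB6: agagccgaGAAccTTCgcGAAggtggggcg
HSPA1A: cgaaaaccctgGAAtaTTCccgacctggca
HSPA1B: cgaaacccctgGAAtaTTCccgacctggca
DNAJB1: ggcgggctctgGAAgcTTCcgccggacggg

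The HSPA8 site lies at chr11:123062170-123062199 on the minus strand, its match beginning 55 bases before the start. The HSP90AA1 site is at chr14:102087104-102087133 (minus, 88 bases before), and the HSP90AB1 site at chr6:44247823-44247852 (plus, 112 before). The CHORDC1 site, chr11:90223083-90223112 (minus, 60 before), holds 3 overlapping matches of 3 units. The HSPD1 site is at chr2:197500061-197500090 (minus, 245 before a start that lies inside the gene) and the DNAJB6 site at chr7:157336865-157336894 (plus, 131 before). HSPA1A and HSPA1B held 2 units each, at chr6:31815426-31815455 and chr6:31827622-31827651 (both plus, 106 and 105 before), and the DNAJB1 site, 1 of 3 with 2 units in its windows, is at chr19:14518426-14518455 (minus, 47 before). Over the 250 bases before their starts the promoters of HSPA1A and HSPA1B were identical at 235 of 251 aligned positions (93.6%). HSP90AA1, HSP90AB1, HSPD1 and DNAJB1 also have annotated starts further upstream, and the windows of those starts held no match. For HSPD1 the bases before that start are chr2:197500275-197500524. A match is a description of the letters, and HSF1 binding was not measured.

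Libraries held 16301772 to 25079913 counts, with 18478 to 19324 genes detected in each. Replicate 3 of both groups stood apart from replicates 1 and 2 on the first principal component, which carried 57.9% of the variance. For this reason each gene is given below both for copper against control and for the 2 replicate 3 libraries against the other 4. PAX8, EPAS1, VIM, KRT8, KRT18 and CDH2, genes of this renal line, were present at 123 CPM (counts scaled to a common library size of 1e6 with TMM factors) or more in every library, while CA9 had at most 2 counts. Markers of blood, endothelium, liver and muscle (PTPRC, CD3E, PECAM1, CDH5, ALB, DES) stayed at or below 0.610 CPM.

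In copper-adapted cells 0 of the 50 chaperone genes passed the test against control, as did 0% of all 12944 genes (edgeR quasi-likelihood test, Benjamini-Hochberg adjusted p under 0.05). Without adjustment, p in this edgeR fit was under 0.05 for 0 of 50 and 455 genes (3.52%), and DESeq2 called 0 of 50 and 27 genes (0.209%). The median log2 difference, copper minus control, was 0.035 over the 50 and 0.0052 over all tested genes, with single members from -0.25 (HSPA2) to 0.30 (BAG2). Of the 50, 35 had a positive estimate (51.4% of all genes), and the median estimate of copper minus control within the same replicate number was 0.060, 0.035 and -0.015 for numbers 1, 2 and 3. The 95% interval of the copper difference lay within a 2-fold change either way for 48 of 50 members (88.7% of genes) and within 1.5-fold for 39 (64.8%). CRYAB and DNAJA4, both near the detection limit, were the exceptions at 2-fold. In a fit with the replicate number as a block, 22 genes (0.17%) and 0 of the 50 were called, the smallest adjusted p among them being 0.469. The median changed sign when copper replicate 1 (-0.028) or control replicate 3 (-0.046) was left out and was 0.12 without copper replicate 3, where 15 genes (0.115%) and 0 members were called. Unadjusted edgeR p was under 0.05 for 2 members in the blocked fit and 5 without copper replicate 3. In replicates 1 and 2 alone it was under 0.05 for 10, HSF1 lower in copper and the rest higher. The share of all genes is not given for these counts, so they are not read as results about the members.

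The 2 replicate 3 libraries, in contrast, held a smaller share of chaperone RNA than the other 4. Of the 50 genes 26 were called lower in replicate 3 (14.3% of all genes) and 2 higher (15.3%), with a median log2 difference of -0.26 against 0.00033 for all tested genes (edgeR, group as a term; 29.6% of genes called in either direction). In 31 of the 50 both replicate 3 libraries lay below the other 4 (23.8% of genes) and in 4 above (24.2%), namely TRAP1, DNAJB6, CDC37 and STUB1. Of these 4, only DNAJB6 kept a positive estimate once trends in transcript length and GC content were removed. A difference of -0.5 or lower was seen in 10 of the 50 (6.47% of genes). This split was made because replicate 3 stood apart in these data, so its p-values describe the split and test no treatment. The 50 genes were also chosen with earlier results of these data known, and the share of all genes does not correct for that choice. What separates the 2 replicate 3 libraries from the other 4 is not given in the labels. The 28 called members became 17 without copper replicate 1. Of the 28, 16 kept the call whichever library was left out. HSPA14, DNAJA2, PTGES3, STUB1 and TCP1 lost it in every such fit other than that without control replicate 3, CCT4 and DNAJB6 without any 1 of the replicate 1 and 2 libraries, BAG5 without copper replicate 3 and CCT3 without copper replicate 1, and the remaining 3 are given below. All genes called, 3836, became 1994, 2551, 1458 and 6182 without copper replicate 1, 2 or 3 or control replicate 3.

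**Figure D1:**
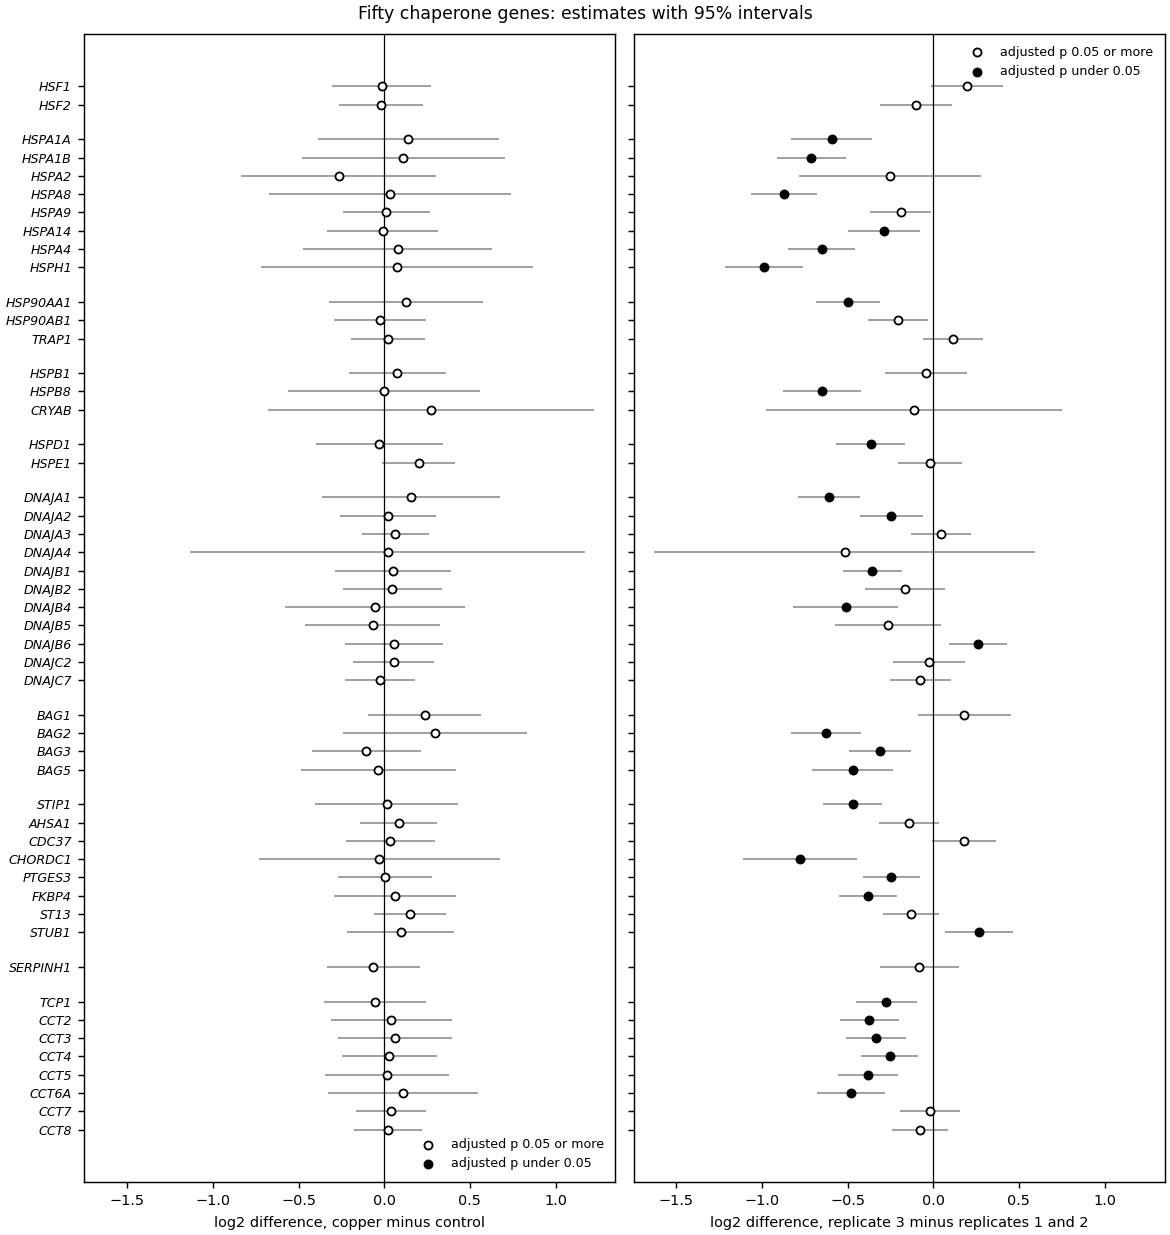
Log2 differences of the 50 genes with 95% intervals from edgeR, grouped by role, for copper minus control on the left and for replicate 3 minus replicates 1 and 2 on the right; points sit at the centre of their interval (no prior count) and are filled where the adjusted p is under 0.05. On the left 0 points are filled, on the right 28, of which 26 lie below 0.

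Summed over the 50 genes, chaperone transcripts came to 18555, 17871 and 14074 CPM in copper replicates 1, 2 and 3 and to 17606, 17400 and 14051 in control replicates 1, 2 and 3. They made up 1.87%, 1.79% and 1.43% of all counts in copper and 1.75%, 1.71% and 1.40% in control. The copper and control sums thus overlapped, and both replicate 3 sums were lower than the other 4. HSPA8, HSP90AA1 and HSP90AB1 alone supplied 32.5% to 36.8% of the sum in each library. Levels per kilobase of transcript ran in control from 1242 CPM per kb for HSPB1, 797 for HSP90AB1, 698 for HSPA8 and 567 for HSP90AA1 down to 0.37 for HSPA2 and 0.18 for DNAJA4. In bulk RNA a lower level in fewer cells and a lower level in every cell cannot be told apart.

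**Figure D2:**
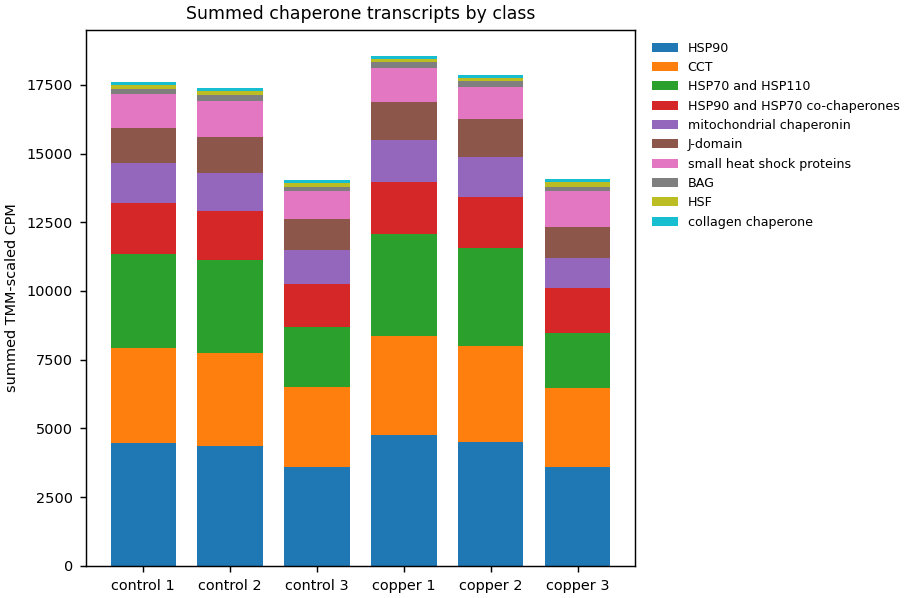
Stacked bars of TMM-scaled CPM summed over the members of each role, 1 bar per library, on an axis from 0. The bars of control 3 and copper 3 reach 14051 and 14074 CPM, and the other 4 lie between 17400 and 18555.

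HSF1, the master regulator of the response, stood at 106, 112 and 141 CPM in copper replicates 1, 2 and 3 and at 116, 125 and 122 CPM in control. The groups overlapped, and only copper replicate 3 was set apart, above the other 5. Its copper difference was -0.015 ± 0.12 (log2, SE) and its replicate 3 difference 0.20 ± 0.095 (adjusted p = 0.138). HSF2, a second heat shock factor, lay between 21.0 and 24.7 CPM in the 6 libraries and passed neither test.

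Among the HSP70 and HSP110 genes 6 of 8 were called lower in replicate 3, 0 of 8 higher and 0 of 8 changed with copper, with class medians of -0.62 for replicate 3 and 0.055 for copper. HSPA8, the constitutive cytosolic HSP70, had 2174, 2025 and 1082 CPM in copper replicates 1 to 3 and 2041, 1956 and 1157 CPM in control. Each replicate 3 library was far below the 4 others, which differed little from each other. Its replicate 3 difference was -0.87 ± 0.088 (ratio 0.547, adjusted p = 0.000632), against 0.035 ± 0.30 for copper. HSPH1, the HSP110 that exchanges nucleotide on HSP70, was at 518, 521 and 226 CPM in copper and 452, 480 and 270 CPM in control. It had the lowest replicate 3 difference of the 50, -0.99 ± 0.10 (ratio 0.504, adjusted p = 0.000632), which placed it at percentile 0.618 of all tested genes. HSPA4, another HSP110-type exchange factor, had 390, 383 and 222 CPM in copper and 350, 348 and 245 CPM in control. The replicate 3 libraries were again the low ones, by -0.65 ± 0.088 (adjusted p = 0.00151).

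HSPA1A and HSPA1B, the inducible HSP70 pair, had far fewer counts than HSPA8 in both groups. HSPA1A had 26.8, 26.8 and 19.9 CPM in copper and 24.9, 26.5 and 15.1 CPM in control. HSPA1B had 94.2, 87.4 and 52.9 CPM in copper and 78.3, 86.2 and 52.5 CPM in control. For both genes the groups overlapped and replicate 3 was lowest in each. Copper differences were 0.14 ± 0.23 and 0.11 ± 0.25, and replicate 3 differences -0.59 ± 0.11 and -0.71 ± 0.091 (adjusted p = 0.00435 and 0.00122). Reads of the pair are hard to assign, since 72.6% of the 50-base stretches of the HSPA1A transcript also occur in HSPA1B. Their sum does not depend on which of the pair was given a shared read. It was 121, 114 and 72.8 CPM in copper and 103, 113 and 67.6 CPM in control. By these counts HSPA8 stood at 14.9 to 19.8 times the pair in every library. How shared reads were treated is not given. If they were dropped, the sum is too low and this ratio too high. The other 3 of the class were HSPA14, a ribosome-bound HSP70, just inside the call for lower in replicate 3 (-0.29 ± 0.10, adjusted p = 0.0449), mitochondrial HSPA9, just outside the call (-0.19 ± 0.080, adjusted p = 0.0966), and HSPA2, the testis-enriched form, with 1.40 to 2.13 CPM and no call. The HSPA14 call was lost once trends in transcript length and GC content were removed (-0.16, adjusted p = 0.0951).

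**Figure D3:**
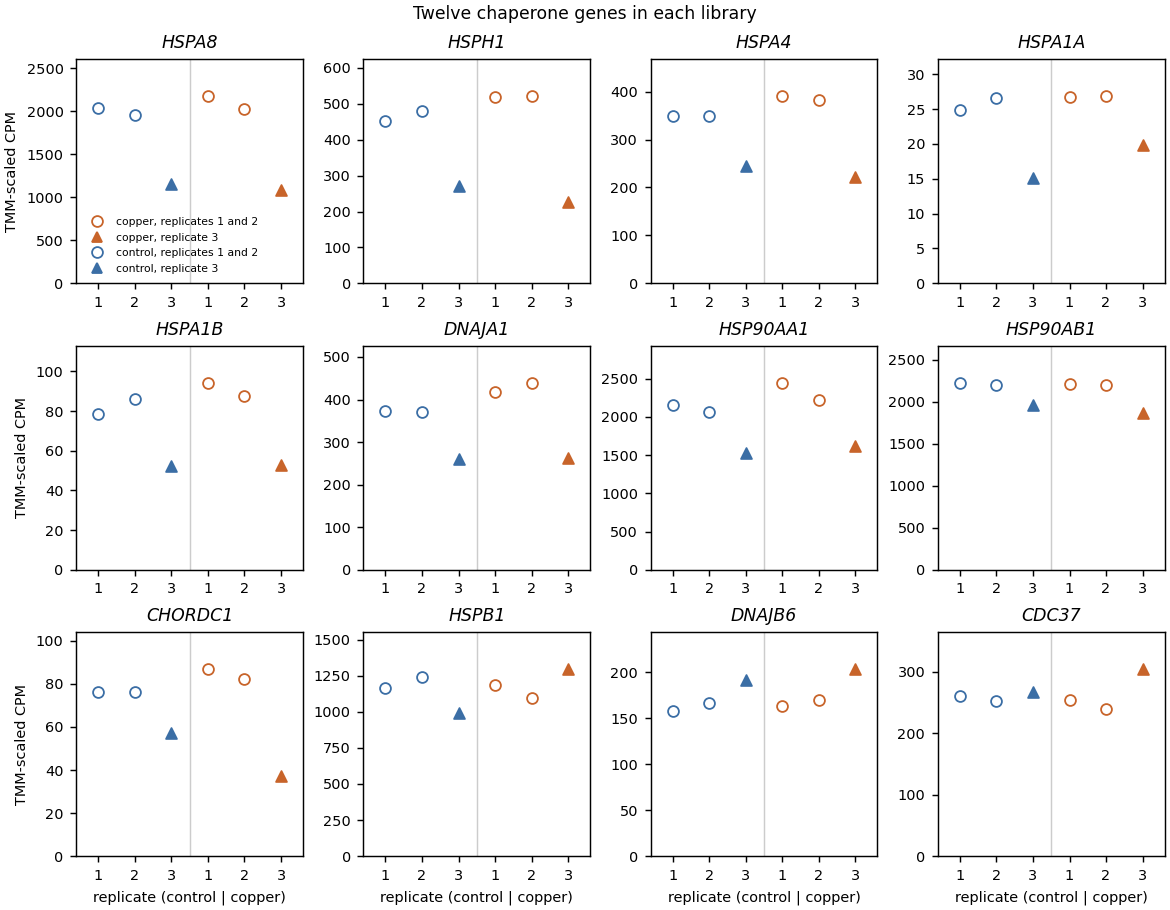
TMM-scaled CPM of 12 chaperone genes in each of the 6 libraries, control on the left and copper on the right of each panel, with replicate 3 as filled triangles and every axis starting at 0. HSPA8, HSPH1, HSPA4, HSPA1A, HSPA1B, DNAJA1, HSP90AA1 and CHORDC1 have both triangles below all 4 circles, while DNAJB6 and CDC37 have both above and HSPB1 has 1 on each side.

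HSP90AA1, the more stress-responsive of the cytosolic HSP90 forms, had 2443, 2220 and 1618 CPM in copper and 2160, 2063 and 1527 CPM in control. Replicate 3 was lowest in both groups, by -0.50 ± 0.085 (adjusted p = 0.00358), while the copper difference was 0.13 ± 0.19. HSP90AB1, the constitutive form, had 2217, 2198 and 1870 CPM in copper and 2225, 2202 and 1966 CPM in control. Its replicate 3 difference, -0.20 ± 0.079, lay just outside the call (adjusted p = 0.074), although both replicate 3 libraries were below the other 4. DESeq2 placed it just inside (-0.21, adjusted p = 0.0494), and edgeR called it with the length and GC trends removed (-0.22, adjusted p = 0.01). The ratio of HSP90AA1 to HSP90AB1 per kilobase was therefore lowest in replicate 3, at 0.87, 0.80 and 0.68 in copper and 0.77, 0.74 and 0.61 in control. TRAP1, the mitochondrial HSP90, lay between 100 and 115 CPM and passed neither test (0.12 ± 0.079 for replicate 3). With the length and GC trends removed its replicate 3 estimate turned to -0.11 (adjusted p = 0.134).

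Of the 3 small heat shock proteins 1 was called lower in replicate 3 before length and GC trends were removed. HSPB1, which holds unfolded proteins in a refoldable state, had 1182, 1094 and 1293 CPM in copper and 1161, 1237 and 989 CPM in control. Replicate 3 was thus the highest copper library and the lowest control library, and neither the copper difference (0.075 ± 0.12) nor the replicate 3 difference (-0.041 ± 0.11) was called. HSPB8, the partner of BAG3 in chaperone-assisted autophagy, had 69.4, 71.3 and 42.3 CPM in copper and 61.7, 75.2 and 46.2 CPM in control. It was called lower in replicate 3 (-0.65 ± 0.10, adjusted p = 0.00272) and its copper difference was -0.0014 ± 0.24. CRYAB, a lens and muscle crystallin, was near the detection limit with 2.13, 1.57 and 2.59 CPM in copper and 1.25, 2.89 and 1.10 CPM in control. Its 95% interval for copper ran from -0.68 to 1.22. With the trends removed, replicate 3 differences were -0.47 for HSPB1 (adjusted p = 0.000228), -0.80 for HSPB8 (adjusted p = 0.000445) and -0.32 for CRYAB (adjusted p = 0.535).

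The mitochondrial chaperonin subunits, which form a barrel (HSPD1) and its lid (HSPE1), differed in the replicate 3 call before length and GC trends were removed. HSPD1 had 1306, 1294 and 912 CPM in copper and 1280, 1228 and 1071 CPM in control, and was called lower in replicate 3 (-0.37 ± 0.090, adjusted p = 0.0147). That call was lost without copper replicate 1 (adjusted p = 0.0508) or copper replicate 3 (adjusted p = 0.0793). HSPE1 had 191, 173 and 182 CPM in copper and 168, 151 and 156 CPM in control. It was 1 of 3 members whose copper libraries all exceeded all control libraries (5.45% of genes), with 0 of 50 the other way (5.35%). The HSPE1 copper difference was 0.20 ± 0.092, a ratio of 1.15 (adjusted p = 0.9999, edgeR). The blocked fit gave an adjusted p of 0.564 for the same gene, and with the length and GC trends removed the difference was 0.10. The HSPE1 replicate 3 difference was -0.019 ± 0.084. With the trends removed both subunits were called lower in replicate 3, HSPE1 by -0.18 (adjusted p = 0.0308) and HSPD1 by -0.32 (adjusted p = 0.00269). The ratio of HSPD1 to HSPE1 per kilobase was 2.65, 2.89 and 1.94 in copper and 2.94, 3.15 and 2.67 in control. Other annotated genes share 27.2% of the 50-base stretches of HSPE1, with the read-through gene HSPE1-MOB4 alone sharing 16%, and 24.8% of those of HSPD1, so part of these counts is uncertain.

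Of the 11 J-domain genes 4 were called lower in replicate 3 (DNAJA1, DNAJA2, DNAJB1, DNAJB4), 1 higher (DNAJB6) and 0 changed with copper. DNAJB1, the main stress-induced partner of HSP70, had 217, 206 and 162 CPM in copper and 204, 200 and 161 CPM in control, a replicate 3 difference of -0.36 ± 0.077 (adjusted p = 0.00904). DNAJB4, a close relative, had 140, 128 and 73.3 CPM in copper and 120, 126 and 108 CPM in control. Its replicate 3 difference was -0.51 ± 0.14 (adjusted p = 0.0212), most of it from copper replicate 3, without which it was not called (-0.18, adjusted p = 0.164). Without copper replicate 1 it was not called either (adjusted p = 0.0555). DNAJA1, which primes clients for HSP70, had the largest J-domain difference (-0.61 ± 0.083, adjusted p = 0.00149). It had 417, 439 and 262 CPM in copper and 372, 371 and 260 CPM in control. The DNAJA1 copper difference was 0.16 ± 0.22, and 0.20 ± 0.057 in replicates 1 and 2 alone (adjusted p = 0.156). DNAJA2, a general cytosolic partner, was just inside the call (-0.25 ± 0.083, adjusted p = 0.0475), and outside it at -0.13 with the length and GC trends removed (adjusted p = 0.0778).

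DNAJB6, which suppresses aggregation of polyglutamine proteins, went the other way. It had 163, 170 and 203 CPM in copper and 157, 167 and 191 CPM in control, and was higher in replicate 3 by 0.26 ± 0.076 (adjusted p = 0.0272). The call was lost when copper replicate 1 or 2 or control replicate 1 or 2 was left out (adjusted p = 0.0611 to 0.108), and 30.6% of the 50-base stretches of its transcript also occur in 1 other annotated gene. DNAJA3, a mitochondrial partner of HSPA9, was the second member without overlap between groups, with 97.5, 97.0 and 104 CPM in copper and 96.1, 94.2 and 94.7 CPM in control. The DNAJA3 copper difference was only 0.065 ± 0.084 (adjusted p = 0.9999). DNAJA4 (0.322 to 0.931 CPM), DNAJB2, DNAJB5, DNAJC2 and DNAJC7 passed neither test, with replicate 3 differences from -0.44 to -0.024. With the length and GC trends removed DNAJB2 and DNAJB5 were called lower in replicate 3 (both -0.41, adjusted p = 0.000841 and 0.031).

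Of the 4 BAG genes, whose products release clients from HSP70, 3 were called lower in replicate 3 and 0 changed with copper. BAG3, which couples HSP70 and HSPB8 to autophagy, had 96.0, 101 and 79.6 CPM in copper and 102, 110 and 85.5 CPM in control (-0.31 ± 0.083 for replicate 3, adjusted p = 0.0194). The BAG3 call was lost without copper replicate 1 (adjusted p = 0.0564) or control replicate 2 (0.0679). BAG2, an inhibitor of the ubiquitin ligase STUB1, and BAG5, which acts on HSP70 and mitochondrial quality control, were lower by -0.63 ± 0.093 and -0.47 ± 0.11 (adjusted p = 0.00212 and 0.0108). BAG2 also had the largest copper estimate of the 50, 0.30 ± 0.23, and was examined further after its values were seen. Its libraries read 59.7, 56.8 and 34.9 CPM in copper and 47.4, 43.8 and 31.9 CPM in control, so copper exceeded control within each replicate number but the groups overlapped. In replicates 1 and 2 alone the BAG2 difference was 0.35 ± 0.073 (ratio 1.28, adjusted p = 0.0532), where 0 of 50 members and 0.856% of genes were called. The blocked fit gave 0.28 ± 0.090 (adjusted p = 0.469). With the length and GC trends removed as well, the block called BAG2 higher in copper (0.37, adjusted p = 0.0278), 1 of 50 members against 1.55% of genes. BAG1, a pro-survival exchange factor at 7.92 to 11.1 CPM, passed neither test.

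Among the 8 other co-chaperones 4 were called lower in replicate 3, 1 higher, and 0 changed with copper. CHORDC1, a zinc-binding HSP90 co-chaperone, had 86.7, 82.4 and 37.1 CPM in copper and 76.4, 76.2 and 57.3 CPM in control. Replicate 3 was lowest in each group and far lower in copper, for an average of -0.78 ± 0.15 (adjusted p = 0.0057), while the copper difference was -0.028 ± 0.30. STIP1, the adaptor that hands clients from HSP70 to HSP90, FKBP4, a peptidyl-prolyl isomerase of steroid receptor complexes, and PTGES3, the p23 that stabilises closed HSP90, were lower by -0.47 ± 0.078, -0.38 ± 0.077 and -0.25 ± 0.076 (adjusted p = 0.00307, 0.00719 and 0.0343). ST13, which slows client release from HSP70, was the last member without overlap for copper, with 212, 214 and 195 CPM against 194, 190 and 176 CPM in control. The ST13 copper difference was 0.15 ± 0.091 (adjusted p = 0.9999). Other annotated genes share 30.7% of its 50-base stretches. STUB1, the ubiquitin ligase that marks chaperone clients for the proteasome, had 34.9, 32.4 and 43.9 CPM in copper and 33.3, 33.6 and 37.1 CPM in control. It was just inside the call for higher in replicate 3 (0.27 ± 0.090, adjusted p = 0.0466). DESeq2 did not call it (adjusted p = 0.0829), nor did the fits that left out any 1 library other than control replicate 3. Its sign turned to -0.13 once trends in transcript length and GC content were removed. AHSA1, the activator of the HSP90 ATPase, and CDC37, the kinase adaptor, passed neither test, although both AHSA1 replicate 3 libraries lay below and both CDC37 ones above the other 4. With the length and GC trends removed AHSA1 was called lower in replicate 3 (-0.30, adjusted p = 0.00714). CDC37 then turned to -0.12 (adjusted p = 0.0884).

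SERPINH1, which assists collagen folding, had 112, 115 and 115 CPM in copper and 109, 138 and 109 CPM in control. Control replicate 2 alone stood out, and neither test called the gene (-0.064 ± 0.12 for copper, -0.081 ± 0.10 for replicate 3). With the length and GC trends removed SERPINH1 was called lower in replicate 3 (-0.26, adjusted p = 0.0232).

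The 8 CCT subunits assemble into 1 double ring. Of them 6 were called lower in replicate 3, 0 higher and 0 changed with copper. TCP1, CCT2, CCT3, CCT4, CCT5 and CCT6A differed by -0.25 (CCT4) to -0.48 (CCT6A), with adjusted p from 0.00515 to 0.0293, whereas CCT7 (-0.018 ± 0.079) and CCT8 (-0.078 ± 0.075) were not called. With the length and GC trends removed CCT7 was called lower too (-0.15, adjusted p = 0.041), and CCT8 was not (-0.043, adjusted p = 0.529). Copper estimates of the 8 lay between -0.055 (TCP1) and 0.11 (CCT6A). CCT6A had 538, 527 and 342 CPM in copper and 467, 465 and 371 CPM in control, while CCT7 had 579.5, 565 and 597 CPM and 582, 574 and 540 CPM. Per kilobase CCT7 was the most abundant subunit RNA in each of the 6 libraries. Its ratio to the lowest subunit was 2.41, 2.43 and 3.23 in copper and 2.45, 2.50 and 2.87 in control, so subunit levels were least even in replicate 3. These ratios were taken without removal of the length and GC trends.

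The replicate 3 difference was next taken within each group, from 1 library against 2. In control 20 of the 50 genes were called lower (5.21% of genes) and 1 higher (DNAJB6; 5.92%). In copper 29 were called lower (25%) and 4 higher (HSF1, DNAJB6, CDC37 and STUB1; 22.2%). The 2 estimates were negative in both groups for 37 of 50 (74%), against 36.8% of 12932 genes, positive in both for 6 and of opposite sign for 7. HSPH1 differed by -0.79 in control and -1.20 in copper, HSPA8 by -0.79 and -0.96, and HSPA1B by -0.65 and -0.78. These 2 estimates rest on separate libraries, and a single replicate 3 library decides each, with the spread taken from replicates 1 and 2 of both groups.

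**Figure D4:**
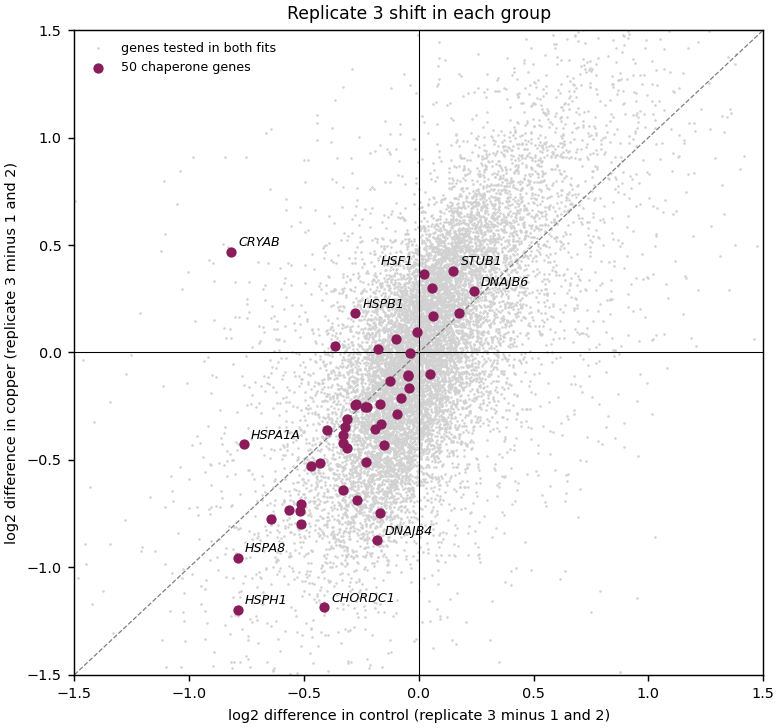
Log2 difference of replicate 3 from replicates 1 and 2 in control (horizontal) and in copper (vertical) for genes tested in both fits, with the 50 chaperone genes as large points and the diagonal dashed; genes beyond 1.5 on either axis are not drawn. Of the 50, 37 lie in the lower left, and CHORDC1, DNAJB4 and HSPH1 fall clearly below the diagonal.

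The interaction of copper with replicate 3 asked whether that difference was of another size in copper. It was called for 4 of the 50, against 11.3% of genes. It was negative for CHORDC1 (-0.77 ± 0.12, adjusted p = 0.00614), DNAJB4 (-0.69 ± 0.11, adjusted p = 0.00751) and HSPH1 (-0.41 ± 0.10, adjusted p = 0.0304), where 8.41% of genes were called in this direction. It was positive for HSPB1 (0.46 ± 0.12, adjusted p = 0.032), where 2.91% were. The count was 7 without copper replicate 1 and 2 without copper replicate 2. It was 0 of 50, with 47 genes in all (0.363%), once trends with transcript length and GC were taken out of every library.

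Transcript length and GC content moved with these differences. Over all tested genes the replicate 3 difference had a Spearman correlation of -0.37 with length and 0.47 with GC content (12845 genes), and over the 50 genes -0.52 and 0.37. For the interaction the correlation with GC content was 0.60 over all genes and 0.68 over the 50. Genes are not independent replicates, and no test was made. The 26 genes called lower had a median length of 2546 bases and a median GC content of 44.1%, against 2232 bases and 51.8% for the 22 not called and 3124 bases and 48.6% for all tested genes. With the trends removed, 32 of the 50 were called lower in replicate 3 (18.4% of all genes) and 1 higher (DNAJB6, 0.29; 15.3%), with a median of -0.29. Of the 28 members called before, 25 kept the call, HSPA14, DNAJA2 and STUB1 lost it, and 8 others gained it. The 8 were HSP90AB1, HSPB1, HSPE1, DNAJB2, DNAJB5, AHSA1, SERPINH1 and CCT7. BAG2 (-0.35) and BAG5 (-0.29) came out smaller by over 1.5 times and BAG3 (-0.50) larger. HSPA8 (-0.87), HSPA1B (-0.93), HSPA1A (-0.84) and HSPH1 (-0.77) were then the lowest together with HSPB8 (-0.80), and HSPB1, which had not been called before, differed by -0.47 (adjusted p = 0.000228).

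The heat shock element counts can be set beside these values. Of the 21 members with at least 2 units 15 were called lower in replicate 3, with a median of -0.44, and of the 22 without them 8, with a median of -0.15. Among all tested genes with a window the shares called lower were 15% with 2 units and 14.5% without. With 3 units 5 of 8 members were called lower (62.5%) and without them 18 of 35 (51.4%). Outside the members 10 of 45 genes with 3 units were called lower (22.2%) and 6 higher (13.3%), against 14.5% and 14.8% of all genes without 3 units. HSPH1 and HSPA4, among the lowest in replicate 3, had no match in their windows, while DNAJB6 and SERPINH1 had 3 units and were not called lower. SERPINH1 was called lower once the length and GC trends were removed (-0.26, adjusted p = 0.0232). For copper the medians were 0.029 with 2 units and 0.029 without.

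Genes around the 50 were read from 4 lists, whose counts for replicate 3 stand beside 14.3% of all genes called lower and 15.3% called higher. In the lists of 6 to 9 genes, 1 or 2 genes called are given as values and not read as results about the list. For copper 0 genes were called in each list. For replicate 3, 7 of 18 further co-chaperones were called lower and 1 higher (median -0.20), led by HSPA4L, an HSP110 relative (-1.07 ± 0.14, adjusted p = 0.00136), the HSP90-bound isomerase PPID (-0.52 ± 0.11, adjusted p = 0.00795) and the glucocorticoid receptor regulator FKBP5 (-0.53 ± 0.12, adjusted p = 0.0115). Of 6 prefoldin subunits, which deliver actin and tubulin to CCT, 1 was called lower (VBP1, -0.24) and 2 higher (PFDN5, 0.30; PFDN2, 0.23). Of 9 genes of mitochondrial folding and proteolysis 0 were called lower and 2 higher, the protease subunit CLPP (0.34) and the iron-sulfur co-chaperone HSCB (0.40), with LONP1 next at 0.24 (adjusted p = 0.0583). Of 8 further genes linked to HSF1 0 were called lower and 2 higher, DEDD2 (0.35) and JMJD6 (0.26). HSPA6, named after its values were seen because it is a strictly stress-induced HSP70, lay between 0.472 and 1.08 CPM in the 6 libraries, and neither test called it.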

How the data were processed

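Raw counts per gene were deposited as 1 table covering 6 libraries, made from total RNA with a directional kit, per the labels. STAR, FastQC, edgeR and build GRCh38 are named, without roles or versions, in the submitters' processing notes. The counting program, its use of strand and its treatment of reads matching several genes are not given in the sources used here. The 5 genes without a symbol (0.000814% of counts) were left out. In R 4.3.3, edgeR 4.0.16 kept genes by filterByExpr (minimum count 10, minimum total 15), scaled libraries with TMM factors and applied the robust quasi-likelihood test to the whole table. Benjamini-Hochberg adjusted p-values were called under 0.05, and log2 values used a prior count of 2, while standard errors and intervals come from the fit without it. Copper against control had group as the only term, replicate 3 against 1 and 2 had group beside it, and their interaction had a fit of its own. The tests were two-sided and were first tested on simulated counts. Alternatives used DESeq2 1.42.0, limma 3.58.1 (voom), other scalings, no filter, each library left out, the replicate block, and replicates 1 and 2 alone. Removal of each library's spline trend (4 degrees of freedom) in length and GC content, with GENCODE 29 transcripts for 99.2% of tested genes, was added after seeing the data. Values of every library are given for 15 core chaperone genes, for the members with the largest called differences (up to 5 in each direction) and for those without overlap between groups, and list genes are named by smallest p. The members and lists were chosen with earlier results of these data known. Each count is given beside the share of all genes, which does not correct for that choice. Replicates are numbered 1 to 3 in the labels of each group. Across the tested genes, deviations from the group mean correlated between same-numbered libraries at 0.46, 0.40 and 0.65. With each group centred on its own mean, a replicate 3 shift shared by both groups raises all 3 values. They therefore cannot decide whether replicates 1 and 2 are paired by number. The difference of replicates 1 and 2 correlated between groups at only 0.15. The replicate number was used as a block only as an alternative. HSPA1B is deposited with coordinates unlike its RefSeq position, so only RefSeq positions are printed. A further gene of the lists is not reported here.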

Additional observations from a re-analysis of the deposited data

Results flagged for a closer look

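For 11 genes the difference of replicate 3 from replicates 1 and 2 was not the same in copper as in control, by the edgeR interaction test over all genes (log2, copper minus control). They are 11 of the 91 chaperone and listed genes tested (12.1%), near the 11.3% of all genes called, and the 4 chaperone genes are 8% of 50. Among the chaperone genes it was -0.77 for CHORDC1, -0.69 for DNAJB4, -0.41 for HSPH1 and 0.46 for HSPB1. CHORDC1 differed by -0.41 in control and -1.19 in copper, and DNAJB4 by -0.18 and -0.87. HSPB1 differed in opposite directions, by -0.28 in control and 0.18 in copper. Among the listed genes around them it was -0.72 for DNAJB14, -0.66 for HSPA4L, -0.54 for DNAJC10, -0.52 for HSPA13, -0.50 for FKBP5, -0.40 for DNAJC3 and 0.41 for PFDN5. Adjusted p ran from 0.00614 (CHORDC1) to 0.0461 (FKBP5). Copper replicate 3 and control replicate 3 are 1 library each. With the length and GC trend removed, 0 of the 50 chaperone genes were called.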

How the results depend on the processing

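For copper against control, 0 members were called under RLE and total-count scaling, no filter, DESeq2, voom, each library left out, the replicate block, replicates 1 and 2 alone, and removal of the length and GC trend. The exception was 1 member, BAG2, in the replicate block with length and GC trend removed. The genes called, 0 in the fit reported, were 22 with the replicate block, 27 with DESeq2, 12 without a filter, 111 in replicates 1 and 2 alone, 200 in the block with the trend removed, and 0 to 15 with a library left out. The block changed no other call on a member. With a library left out the members' median for copper ran from -0.046 to 0.12. For replicate 3, leaving a library out gave 1458 to 6182 genes and 17 to 33 members. For the interaction it gave 1013 to 2635 genes and 2 to 7 members, DESeq2 gave 592 genes, and removal of the trend 47 genes and 0 members. The other scalings gave 3848 and 3879 genes for replicate 3. Where a library left out left replicate 3 with 1 library, that library was assumed to vary like the others.

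Signs of small copper estimates turned, none of them called. Genes whose signs are listed in this and the next paragraph are those chosen by rule for values in every library, unless stated. Under total-count scaling HSF1 was at 0.013, HSP90AB1 at 0.0024 and HSPB8 at 0.025. In replicates 1 and 2 alone HSPB1 was at -0.076, HSPB8 at 0.042, CRYAB at -0.12, HSPD1 at 0.050, CHORDC1 at 0.15 and DNAJB4 at 0.13. With the trend removed HSPB1 was at -0.026, and with the block as well HSPB1 at -0.024 and HSPA8 at -0.012. With each library left out in turn, the copper difference ran from -0.23 to 0.27 for CHORDC1, -0.050 to 0.17 for DNAJB1, -0.23 to 0.18 for DNAJB4, -0.045 to 0.14 for DNAJB6, -0.15 to 0.062 for HSF1, -0.013 to 0.28 for HSP90AA1, -0.080 to 0.050 for HSP90AB1, -0.071 to 0.29 for HSPA1A, -0.074 to 0.33 for HSPA1B, -0.074 to 0.30 for HSPA4, -0.18 to 0.29 for HSPA8, -0.012 to 0.15 for HSPB1, -0.17 to 0.20 for HSPB8, -0.12 to 0.12 for HSPD1, -0.14 to 0.37 for HSPH1, -0.13 to 0.059 for SERPINH1 and -0.042 to 0.18 for STUB1.

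For replicate 3, removal of the trend turned HSF1 to -0.14, STUB1 to -0.13, ST13 to 0.013 and DNAJA3 to -0.086. Among the other members it turned CDC37 to -0.12, TRAP1 to -0.11, BAG1 to -0.11 and DNAJC2 to 0.034, none of them called. Leaving a library out gave -0.82 to 0.47 for CRYAB, -0.0065 to 0.093 for DNAJA3, -0.28 to 0.18 for HSPB1, -0.060 to 0.016 for HSPE1 and -0.18 to 0.018 for SERPINH1. For the interaction, removal of the trend turned HSF1 to -0.010, HSP90AA1 to 0.11, HSPE1 to -0.12, BAG3 to -0.19, STUB1 to -0.18, ST13 to 0.20 and DNAJA3 to -0.026. ST13 was also at 0.0010 with RLE, 0.0085 with total counts, 0.023 with no filter and 0.0010 with DESeq2. Leaving a library out gave -0.054 to 0.071 for BAG3, -0.13 to 0.019 for HSP90AA1, -0.032 to 0.12 for HSPE1 and -0.0075 to 0.0072 for ST13. For these signs the cause was not tested. Depth limits CRYAB, DNAJA4 and HSPA2, which had few counts.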
